A study of Ursus arctos with 5 samples.

Results

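The genes described here are those of the Wnt, TGF-beta and BMP, Notch and growth factor families in the gastrocnemius, a muscle of the lower hind leg, of grizzly bears (Ursus arctos). They were chosen by name alone, as every assembled transcript whose human gene name begins with WNT, FZD, LRP and a digit, TGFB, BMP and a digit or R, SMAD, ACVR, NOTCH, JAG1 or JAG2, FGF, PDGF, VEGF, ANGPT, LTBP, IGFBP, NRG1 to NRG4, ERBB or CTNN. The rule found 70 transcripts of 46 genes among the 26614 transcripts of the deposited table, 9093 of which carried a human gene name. By role there were 12 genes of ligands, 17 of receptors and co-receptors, 5 of extracellular regulators and 9 of proteins inside the cell. The extracellular regulators were LTBP3, LTBP4, IGFBP4 and IGFBP5, which bind ligands, and ANGPTL2, an angiopoietin-like protein. The names of another 3 genes, BMP2K, FGFR1OP and CTNNAL1, matched the rule although their products are not ligands, receptors or transducers of these families.

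The study compared muscle that was active, sampled in October, with muscle in hibernation, sampled in February. Both states came from the same 2 captive, untreated bears, Tia and Star, which the study describes as a subadult and an adult, while in the labels every sample is 10 years old. Each bear gave 1 biopsy per state under anaesthesia, so that there were 4 single-end libraries, 2 per state and 1 per bear and state. The bears stopped feeding early in November and were fed again in March, and the dose of the injected anaesthetic was lower in hibernation. Hibernation, fasting, inactivity, season and anaesthetic dose therefore cannot be told apart here. Whether the labelled state and each column belong together could be read only from the column names, since in the labels both bears share a single-end sample for each state.

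These families pass signals between cells. Wnt proteins bind frizzled receptors with LRP5 or LRP6 and so keep beta-catenin from being broken down, while TGF-beta and BMP proteins bring together receptor kinases that phosphorylate SMAD proteins. Jagged ligands on one cell bind Notch receptors on its neighbour and set the Notch intracellular part free, whereas most of the other growth factors act through receptor tyrosine kinases. In skeletal muscle these routes are known for satellite cells, the size of fibres, the extracellular matrix and blood vessels.

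Levels are given as RPKM, the reads on a transcript per kilobase of its length, scaled to the aligned reads of the library. The smallest steps between RPKM values corresponded to 44.7 to 54.2 M (mega) aligned reads per library, and the 70 transcripts held 0.103% to 0.139% of them. A single value rested on 26.98 to 6265 reads, with a median of 380 to 705 per library. Every transcript in the table was at 1 RPKM or more in all 4 libraries, so a gene that went below this level in any library was not analysed here. Here and below, each gene outside the name rule stands for its most read transcript alone. Counted so, the muscle fibre genes TTN, MYH1, MYH2, MYH7 and TNNC2 were high and summed to 10660 to 16080 RPKM. TTN alone had 17 transcripts. ACTA1, CKM, MB and DES were not among the named transcripts used here. The active library of Tia stood apart in the most read of 9 transcripts of COL1A1, the main chain of type I collagen. It read 193 RPKM there against 6.79 to 11.0 RPKM in the other 3 libraries. In bulk muscle, fewer cells of a type and less RNA per cell cannot be told apart.

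No transcript of these genes passed the test between the states. With limma on log2(RPKM + 0.5), adjusted over all 26614 transcripts, 0 of 70 had an adjusted p under 0.05 (0% of the whole table did), and the lowest adjusted p among them was 0.577. At an unadjusted p under 0.05, 8 transcripts of 6 genes were higher in hibernation (11.4%, against 6.99% of all transcripts) and 2 were lower (2.86%, against 1.42%). A score modelled on NOISeq was also computed. It gives the portion of all Tia-to-Star differences, taken among libraries of the same state, whose ratio and size were both no larger than those of the transcript between hibernation and activity. By this score 2 transcripts reached 0.8 on the higher side (3.27% of all did) and 1 on the lower side (1.45% of all). Leaving out a library moved the unadjusted counts. They were 4 higher and 1 lower without the active library of Tia (3.01% and 0.74% of all), 1 and 1 without that of Star (4.51% and 2.28% of all), 6 and 2 without the hibernating library of Tia (4.34% and 1.39% of all) and 10 and 8 without that of Star (8.56% and 9.12% of all). Scaling the libraries by their upper quartile gave 4 higher and 2 lower (2.87% and 3.45% of all). The limma p-values rest on 2 bears per state and on a variance drawn towards a trend over the whole table. An exact permutation test of 2 against 2 libraries cannot go below p = 0.333 for a single transcript. The values below are therefore descriptions of 2 animals.

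In the values as deposited, directions shared by both bears were mostly towards higher levels in hibernation, here as in the whole table. Of the 70 transcripts, 33 were higher in hibernation in both bears (47.1%, against 45.8% of all) and 6 were lower in both (8.57%, against 17.9%). Tia and Star went opposite ways for the rest, with 26 lower in Tia and higher in Star (37.1%, against 24.8%) and 5 the other way round (7.14%, against 11.4%). The median log2 difference between hibernation and activity was 0.17 over the 70 transcripts, 0.11 in Tia and 0.25 in Star, beside 0.12 over all transcripts. None was 2-fold higher in both bears or 2-fold lower in both, against 0.496% of all on the higher and 0.192% on the lower side. At 1.5-fold, 7 transcripts of 5 genes were higher in both bears (10.0%, against 4.28% of all) and 1 was lower (1.43%, against 0.834%). Counting 1 transcript a gene gave 3 of 46 genes on the higher side (6.52%, against 3.84% of all named genes counted the same way). Scaling the libraries by their median ratio lowered the median difference over all transcripts by 0.10 in Tia and 0.19 in Star, and the median over the 70 was then 0.02. After it, 27 of the 70 were higher in both bears (38.6%, against 29.7% of all) and 18 lower in both (25.7%, against 33.6%). Scaling by the upper quartile gave 4 transcripts that were 1.5-fold higher in both bears (1.6% of all were) and 2 that were lower (2.22% of all).

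**Figure D1:**
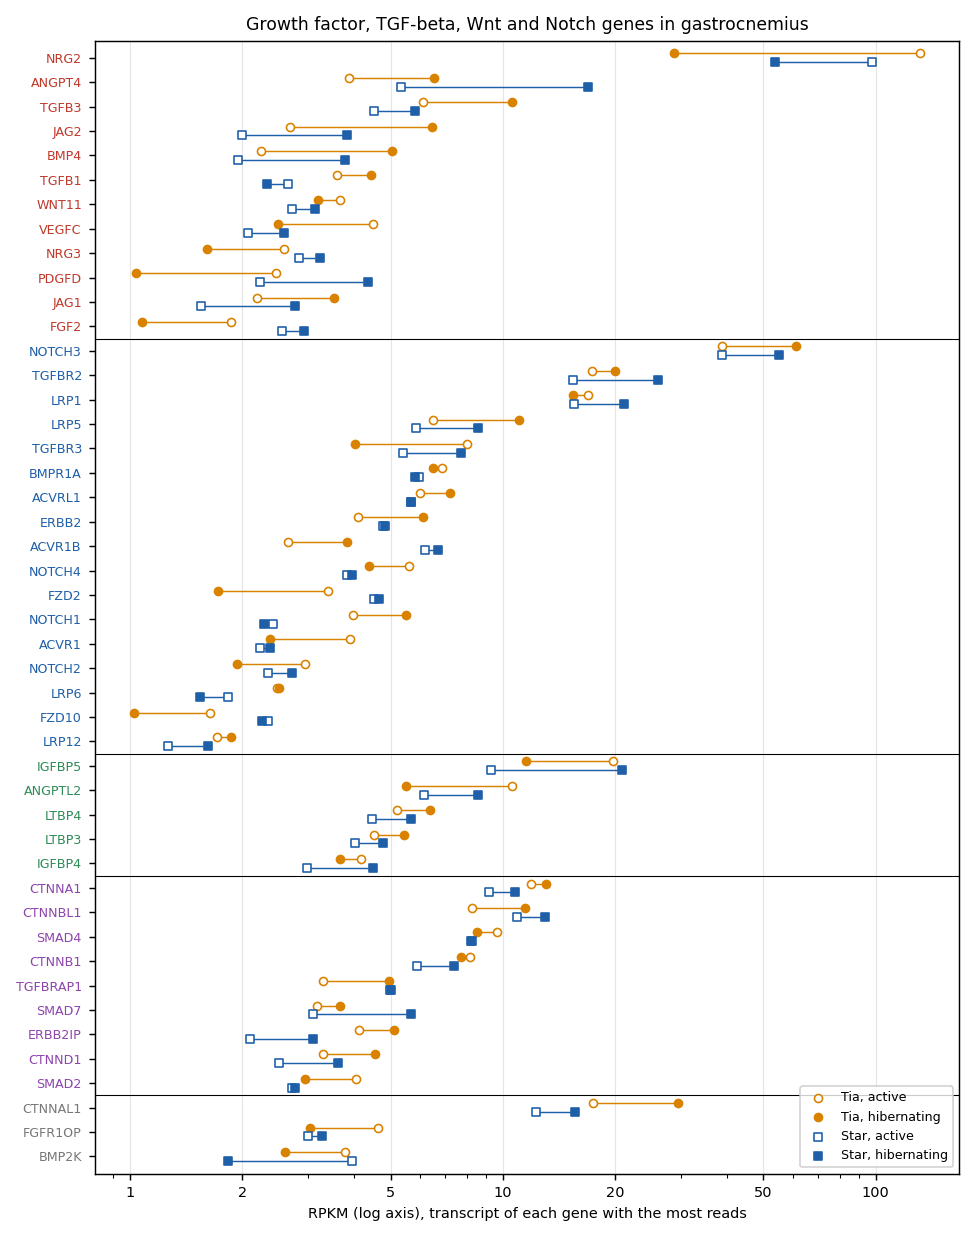
RPKM (log axis) of the transcript with the most reads for each of the 46 genes, grouped by role from ligands at the top to name matches at the bottom. Open symbols are active and filled symbols hibernating libraries, circles Tia and squares Star, each 1 library. NRG2, at 132 and 97.6 RPKM active, and NOTCH3, at 61.0 and 55.2 RPKM hibernating, lie far to the right of most genes. Of the 46 genes, 17 are lower in hibernation in Tia and higher in Star (37%, against 23.4% of all named genes counted the same way).

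Among the 12 ligand genes, 4 had a transcript at least 1.5-fold higher in hibernation in both bears: both jagged genes, BMP4 and ANGPT4. These were 5 of 14 ligand transcripts (35.7%, against 4.28% of all transcripts). JAG2 counted through both of its transcripts, which shared reads, and JAG1 only through its shorter transcript, not its most read one. By the most read transcript alone, JAG2, BMP4 and ANGPT4 remained of the 12 ligand genes, where 3.84% of all named genes counted so. JAG2, a membrane-bound ligand of Notch receptors, was assembled as transcripts of 4324 and 4290 bases. The longer one stood at 2.68 RPKM active and 6.44 hibernating in Tia, and at 2.00 and 3.81 RPKM in Star. Both hibernating libraries lay above both active ones, with raw ratios of 2.40 in Tia and 1.91 in Star. The log2 difference was 0.96 ± 0.33 (SE, n = 2 bears per state, limma adjusted p = 0.577), and 0.61 without the hibernating library of Tia. JAG1, the other jagged ligand, had transcripts of 3699 and 3512 bases, the shorter of which read 2.23 RPKM active and 3.67 hibernating in Tia against 1.60 and 2.91 in Star. Here too the states did not overlap, and the ratios of 1.64 and 1.82 were close in the 2 bears (log2 difference 0.65 ± 0.27, SE, limma adjusted p = 0.592). The longer transcript, with ratios of 1.61 and 1.79, was just short of 1.5-fold in Tia on the log2(RPKM + 0.5) scale.

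BMP4, a bone morphogenetic protein that signals through SMAD proteins, had active levels of 2.24 RPKM in Tia and 1.95 RPKM in Star. In hibernation it read 5.03 and 3.77 RPKM, above both active libraries, which gave ratios of 2.24 and 1.93 and a log2 difference of 0.91 ± 0.27 (SE, limma adjusted p = 0.577). ANGPT4, an angiopoietin that binds the endothelial receptor TIE2, had 3.86 RPKM active and 6.52 hibernating in Tia, and 5.33 and 16.9 RPKM in Star. The hibernating library of Star stood far above the other 3, and the difference was 1.69-fold in Tia and 3.17-fold in Star (log2 difference 1.13 ± 0.45, SE, limma adjusted p = 0.592, score 0.912). The log2 difference of ANGPT4 was 0.48 without the hibernating library of Star and 1.79 without that of Tia. The gene for the TIE2 receptor itself was not among the named transcripts used here, while TIE1, its relative, read 9.40 RPKM active and 10.6 hibernating in Tia and 4.72 and 5.89 in Star.

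NRG2 was the ligand with the highest level and the largest difference of all 70 transcripts. It encodes a neuregulin, a ligand of ERBB receptors. Its transcript was only 288 bases long, the shortest of the 70, and read 132 RPKM active and 28.8 hibernating in Tia, against 97.6 and 53.7 RPKM in Star. Both hibernating libraries lay below both active ones, at 0.219 and 0.550 of the active level (log2 difference −1.51 ± 0.35, SE, limma adjusted p = 0.577, score 0.978). Its relative NRG3 was near 2.58 and 2.85 RPKM active and 1.61 and 3.23 hibernating in Tia and Star, a lower value in one bear and a higher one in the other. ERBB2 was the only receptor of the ERBB names among the 70, with transcripts of 4861 and 4584 bases. The longer one read 4.10 RPKM active and 6.11 hibernating in Tia but 4.77 and 4.83 in Star.

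The remaining 7 ligand genes showed no shared direction, or one smaller than 1.5-fold in a bear. TGFB3 stood at 6.11 RPKM active and 10.6 hibernating in Tia and at 4.51 and 5.82 in Star, so that it was higher in hibernation in both bears while the states overlapped. TGFB1, the form best known for fibrosis, was at 3.58 and 4.42 RPKM in Tia and 2.65 and 2.33 in Star. PDGFD, a platelet-derived growth factor, went at least 1.5-fold opposite ways, from 2.46 RPKM active to 1.04 hibernating in Tia and from 2.23 to 4.36 in Star. FGF2, VEGFC, NRG3 and WNT11 each read lower in hibernation in Tia and higher in Star. WNT11, the sole Wnt ligand in the table, had 3.66 RPKM active and 3.19 hibernating in Tia and 2.72 and 3.14 in Star, a log2 difference of 0.00 with a 95% confidence interval of −0.64 to 0.64. For PDGFD at 1.04 RPKM and FGF2 at 1.08 RPKM in the hibernating library of Tia, the lower limit of 1 RPKM in the table lay close by.

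**Figure D2:**
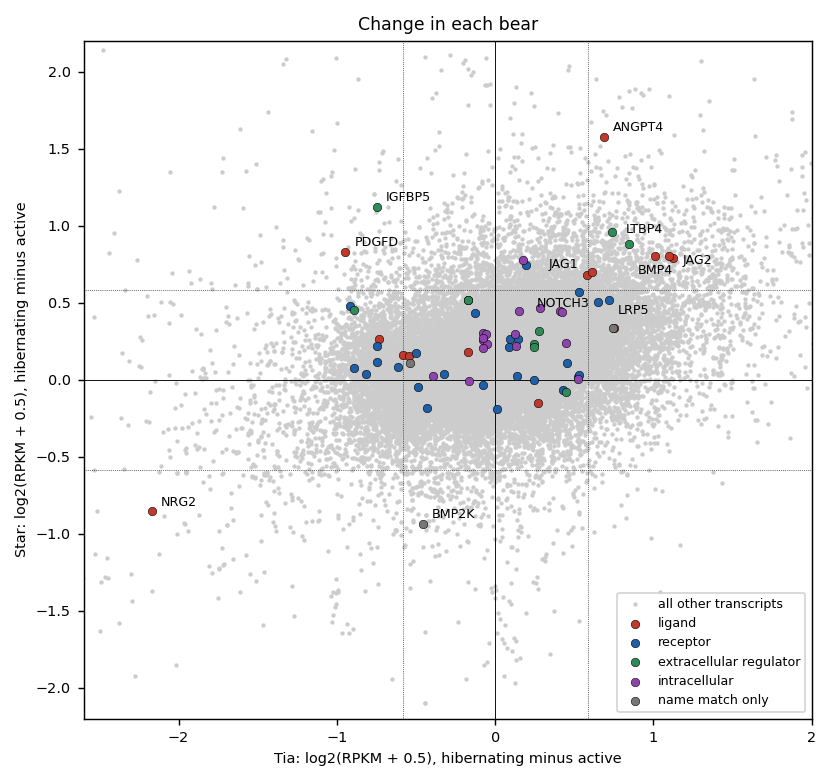
Hibernating minus active log2(RPKM + 0.5) in Tia (x axis) against the same in Star (y axis), 1 point per transcript. Coloured points are the 70 transcripts by role, grey points the rest of the table, of which 150 lie outside the axes, and dotted lines mark 1.5-fold. JAG1, JAG2, BMP4, ANGPT4 and LTBP4 lie beyond 1.5-fold at the upper right, NRG2 at the lower left, and IGFBP5 and PDGFD at the upper left, higher in Star and lower in Tia.

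None of the 26 receptor transcripts was 1.5-fold higher (4.28% of all were) or lower (0.834% of all) in both bears. NOTCH3, the Notch receptor known from smooth muscle cells and pericytes of vessels, had the highest level of the receptors. It read 38.8 RPKM in Tia and 38.7 in Star when active, and 61.0 and 55.2 RPKM in hibernation. The active libraries were nearly equal and the hibernating ones both higher, by 1.57-fold and 1.43-fold (log2 difference 0.58 ± 0.20, SE, limma adjusted p = 0.577). Of the 6 markers of smooth muscle and pericytes, MYH11 and RGS5 were named in the table. Summed, they read 22.4 RPKM active and 15.6 hibernating in Tia, and 16.6 and 39.6 in Star, where MYH11 alone went from 6.49 to 27.6 RPKM. ACTA2, TAGLN, CSPG4 and PDGFRB were not among the named transcripts used here, and the part of these cells in the NOTCH3 difference was not tested.

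The other Notch receptors did not share this pattern. NOTCH4, the Notch receptor of endothelium, had 3 transcripts, and all 3 were lower in hibernation in Tia and slightly higher in Star. The longest read 5.61 RPKM active and 4.38 hibernating in Tia and 3.82 and 3.94 in Star. NOTCH2 behaved likewise in both of its transcripts, with 2.95 and 1.94 RPKM in Tia and 2.35 and 2.72 in Star for the longer. The 2 transcripts of NOTCH1 disagreed: the longer, of 3197 bases, read 3.95 RPKM active and 5.49 hibernating in Tia and 2.42 and 2.29 in Star, while that of 441 bases was lower in hibernation in both bears, at 1.94 and 1.31 RPKM in Tia and 3.30 and 2.85 in Star. NOTCH1 was the only gene of the 15 with several transcripts whose mean differences had opposite signs. The 4 named endothelial markers (PECAM1, EGFL7, SOX18 and TIE1, of 9 listed, 1 transcript a gene) summed to 30.8 RPKM active and 27.6 hibernating in Tia. In Star they summed to 17.8 and 22.4. Of these 4, PECAM1 alone was lower in hibernation in Tia and higher in Star, as NOTCH2 and NOTCH4 were, while EGFL7 and TIE1 were higher and SOX18 lower in both, and the part of these cells in the Notch values was not tested.

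Among the Wnt receptors and co-receptors, LRP5 was higher in hibernation in both bears. It had 6.51 RPKM active and 11.0 hibernating in Tia and 5.84 and 8.59 in Star, with no overlap between the states (log2 difference 0.62 ± 0.24, SE, limma adjusted p = 0.592). LRP6, its close relative with the same role, read 2.48 and 2.51 RPKM in Tia and 1.83 and 1.54 in Star, so that it hardly moved in Tia and was lower in Star. The frizzled receptors were low. FZD2 read 3.40 RPKM active and 1.72 hibernating in Tia and 4.53 and 4.65 in Star, and FZD10 read 1.64 and 1.02 in Tia and 2.34 and 2.25 in Star. LRP1, an endocytic receptor that clears many ligands, had 4 transcripts between 1.89 and 21.1 RPKM. Its most abundant one stood at 16.9 RPKM active and 15.4 hibernating in Tia and at 15.5 and 21.1 in Star, a direction that was not shared, while the other 3 were slightly higher in hibernation in both bears. LRP12, the lowest of the 70 by mean level, stayed between 1.26 and 1.86 RPKM.

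Of the TGF-beta receptors, TGFBR2, the type II receptor that binds the ligand first, was higher in hibernation in both bears. Its longer transcript read 17.3 RPKM active and 19.97 hibernating in Tia and 15.4 and 26.1 in Star, while the shorter, of 1136 bases, read 4.97 and 7.40 in Tia and 5.57 and 8.50 in Star. Neither overlapped between the states, and the log2 differences were 0.47 ± 0.23 and 0.55 ± 0.23 (SE, limma adjusted p = 0.619 and 0.592). TGFBR3, the co-receptor betaglycan that presents ligand to TGFBR2, went opposite ways, from 8.03 RPKM active to 4.01 hibernating in Tia and from 5.41 to 7.71 in Star. Among the type I receptors, BMPR1A, which binds BMPs, was between 5.82 and 6.87 RPKM in all 4 libraries, with a log2 difference of −0.05 and a 95% confidence interval of −0.63 to 0.52. ACVRL1, the type I receptor of endothelium also called ALK1, was between 5.66 and 7.20 RPKM. ACVR1B, an activin receptor, differed more between the bears than between the states, with 2.65 and 3.81 RPKM in Tia and 6.17 and 6.69 in Star. ACVR1, a BMP receptor, read 3.90 RPKM in the active library of Tia and 2.23 to 2.38 in the other 3.

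The extracellular regulators gave both a shared and an opposite pattern. LTBP4, a latent TGF-beta binding protein that anchors TGF-beta in the matrix, had 3 transcripts, and none overlapped between the states. One of 600 bases read 4.16 RPKM active and 7.88 hibernating in Tia and 3.63 and 7.10 in Star, and the other of 600 bases read 1.94 and 3.56 in Tia and 1.64 and 3.66 in Star. The ratios lay between 1.84 and 2.23, and the log2 differences were 0.86 ± 0.24 and 0.85 ± 0.24 (SE, limma adjusted p = 0.577 for both). The transcript of 1877 bases, which held most of the gene's reads, was higher by only 1.23-fold and 1.27-fold, from 5.19 to 6.38 RPKM in Tia and from 4.46 to 5.66 in Star. Summed over the 3 transcripts, LTBP4 reads, scaled to depth, were 1.41-fold higher in Tia and 1.48-fold higher in Star. LTBP3, a related protein, was 1.21-fold and 1.19-fold higher in its longest transcript, of 5525 bases, at 4.50 and 5.43 RPKM in Tia and 4.001 and 4.777 in Star.

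IGFBP5, which binds insulin-like growth factors, was the clearest case of opposite directions. It stood at 19.7 RPKM active and 11.6 hibernating in Tia and 9.32 and 20.9 in Star, ratios of 0.585 and 2.24, so that the mean log2 difference of 0.19 ± 0.44 (SE, limma adjusted p = 0.879) describes neither bear. IGFBP4 and ANGPTL2, a secreted angiopoietin-like protein, leaned the same ways. ANGPTL2 read 10.6 RPKM active and 5.49 hibernating in Tia and 6.15 and 8.59 in Star, and IGFBP4 read 4.17 and 3.65 in Tia and 2.99 and 4.49 in Star for the longer transcript. Transcripts going at least 1.5-fold opposite ways made up 2 of the 70 (IGFBP5 and PDGFD, 2.86%), against 0.767% of all. Of 8 connective tissue markers, 5 were named, and they totalled 362 RPKM active and 288 hibernating in Tia and 177 and 242 in Star. These totals hold only the most read transcript of each gene. COL1A1 had 9 transcripts, COL3A1 8, COL5A2 7, COL1A2 2 and FBN1 1, and the others are not given here. Of the 5 most read transcripts, that of COL1A1 alone went opposite ways in the bears. Those of COL1A2 and COL3A1 were higher and those of COL5A2 and FBN1 lower in hibernation in both. DCN, LUM and PDGFRA were not among the named transcripts used here, and the part of these cells in the IGFBP5, ANGPTL2 and PDGFD values was not tested.

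None of the 17 transcripts of proteins inside the cell had an unadjusted limma p under 0.05, a level that 6.99% of all transcripts reached on the higher and 1.42% on the lower side. CTNNB1, beta-catenin, had 6 transcripts between 4.59 and 8.15 RPKM, all of them slightly lower in hibernation in Tia (log2 −0.08 to −0.05) and higher in Star (0.20 to 0.31). SMAD4, the SMAD shared by TGF-beta and BMP signals, read 9.63 RPKM active and 8.54 hibernating in Tia and 8.26 and 8.22 in Star. SMAD2, which carries the TGF-beta signal, read 4.03 and 2.95 in Tia and 2.71 and 2.77 in Star. SMAD7, an inhibitor that TGF-beta induces, was higher in hibernation in both bears, though mainly in Star, at 3.17 and 3.65 RPKM in Tia and 3.10 and 5.67 in Star (log2 difference 0.48 ± 0.29, SE, limma adjusted p = 0.659). Unlike CTNNB1, the catenins CTNND1 and CTNNA1 were also higher in both. CTNND1, or p120 catenin, went from 3.30 to 4.54 RPKM in Tia and from 2.52 to 3.61 in Star in its longer transcript. The most read transcript of CTNNA1, alpha-catenin, went from 11.9 to 13.1 in Tia and from 9.19 to 10.8 in Star and overlapped between the states. Its log2 difference was 0.18, and 0.02 after scaling by the median ratio. CTNNBL1, a nuclear protein named for its likeness to beta-catenin and known from splicing, read 8.28 and 11.5 RPKM in Tia and 10.9 and 13.0 in Star. ERBB2IP, which binds ERBB2, differed more between the bears (4.12 and 5.12 RPKM in Tia, 2.10 and 3.10 in Star), and TGFBRAP1 read 3.30 RPKM in the active library of Tia and 4.96 to 5.01 in the others.

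Of the name matches, BMP2K, a kinase of endocytosis named for its induction by BMP2, was lower in hibernation in both bears, at 3.77 and 2.61 RPKM in Tia and 3.95 and 1.83 in Star (log2 difference −0.70 ± 0.27, SE, limma adjusted p = 0.592). CTNNAL1, an alpha-catenin-like protein, was at 17.4 and 29.5 RPKM in Tia and 12.3 and 15.6 in Star, higher in hibernation in both while the states overlapped. FGFR1OP, a centrosomal protein, read 4.64 and 3.04 in Tia and 3.01 and 3.28 in Star.

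States that did not overlap, with both hibernating libraries above or below both active ones, counted 23 of the 70 transcripts on the higher side (32.9%, against 33.6% of all) and 2 on the lower side (NRG2 and BMP2K, 2.86%, against 8.4%). The higher side included 6 of 14 ligand transcripts, 7 of 26 receptor transcripts, 5 of 10 of extracellular regulators and 5 of 17 of proteins inside the cell. Taking 1 transcript a gene gave 13 of 46 (28.3%, against 35.8% of all named genes counted the same way) and 2 of 46 (4.35%, against 8.11%). After scaling by the median ratio the 70 transcripts counted 13 on the higher side (18.6%, against 19.9% of all) and 9 on the lower side (12.9%, against 17.7%).

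**Figure D3:**
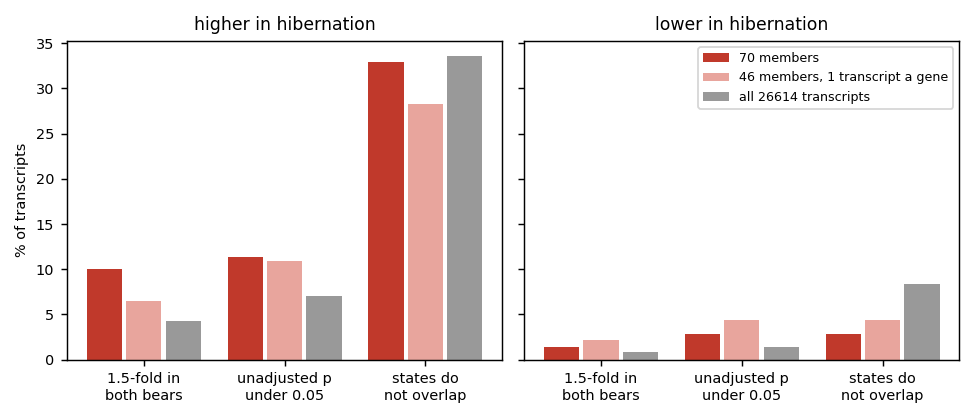
Percent of transcripts higher (left) and lower (right) in hibernation under 3 rules, as bars for the 70 transcripts, for 1 transcript of each of the 46 genes and for all 26614 transcripts. The higher side at 1.5-fold in both bears holds 10.0%, 6.52% and 4.28%, while the share whose states do not overlap is 32.9%, 28.3% and 33.6%.

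Many transcripts of the same gene shared reads and were not separate measurements. Reads recovered from RPKM, length and depth came out whole in all 4 libraries for 27 of the 31 genes with 1 transcript, but for 11 of the 39 transcripts of the 15 genes with several. The 2 transcripts of IGFBP4 had 495.5 and 495.5 reads in the active library of Tia and 302.5 and 302.5 in that of Star, whose sums of 991 and 605 were whole. Those of JAG1 had 426.6 and 411.5 reads in the active library of Tia, which sum to 838. The sums for JAG2 were whole in 2 of 4 libraries and those for LTBP4 in 0 of 4. Fractions also appeared for LRP5, LRP6, NOTCH3 and TGFBR3, at 1664.5 reads for LRP5 and 3380.4 for NOTCH3 in the active library of Tia, so these values include parts of reads. The tolerance was 0.05 reads plus the rounding of the RPKM value and 3e-05 of the reads, and for sums 0.1 reads plus 5e-05 of the sum. BMP4, ANGPT4, NRG2, IGFBP5 and PDGFD, each with 1 transcript, came out whole. Summed over both transcripts, reads scaled to depth were 2.38-fold and 1.92-fold higher in hibernation for JAG2 in Tia and Star and 1.63-fold and 1.81-fold higher for JAG1.

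**Figure D4:**
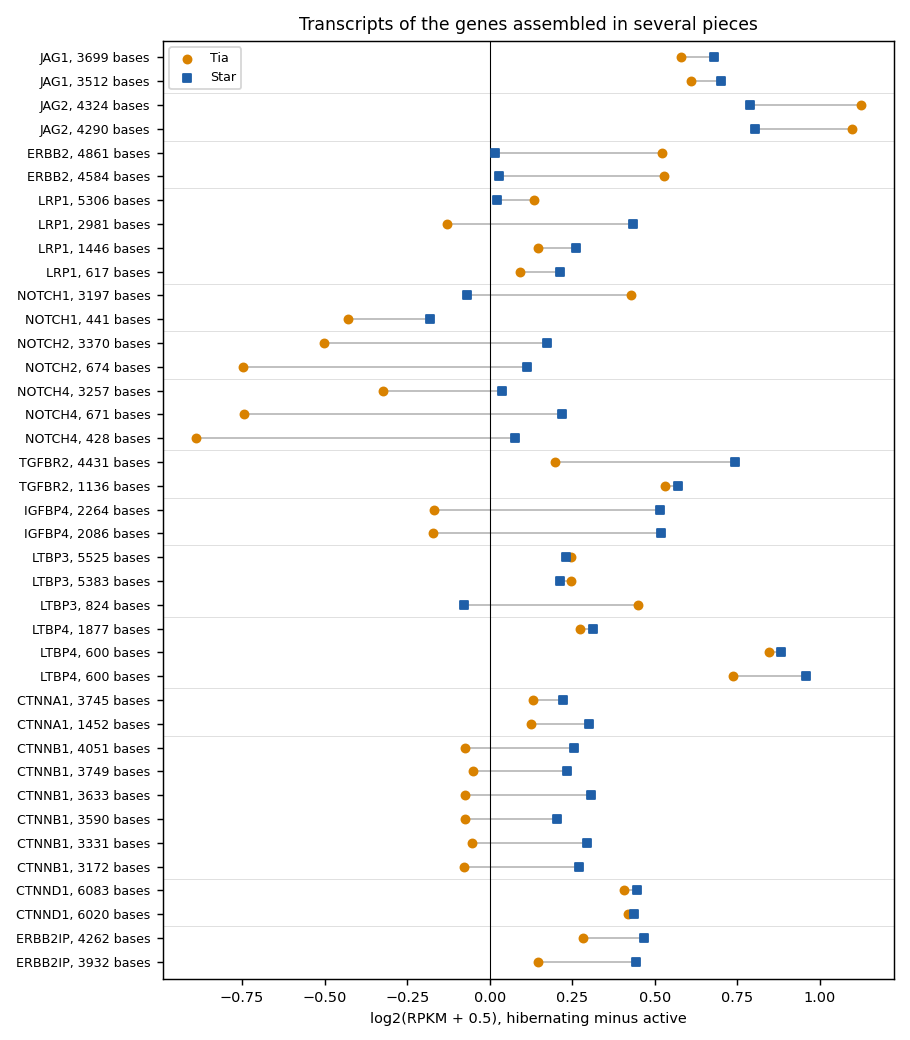
Hibernating minus active log2(RPKM + 0.5) of every transcript of the 15 genes with several, labelled by gene and length in bases. Circles are Tia and squares Star, joined by a line, with 1 library per bear and state. Transcripts of a gene lie close together for JAG1, JAG2, CTNNB1 and CTNND1 and apart for NOTCH1 and LTBP4.

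The median difference in Tia was lower for short transcripts. The 16 transcripts under 1000 bases had a median log2 difference of −0.30 in Tia and 0.14 in Star, against 0.14 and 0.28 for the 54 longer ones. Over the whole table the short transcripts stood at −0.01 in Tia and 0.15 in Star and the longer ones at 0.14 and 0.17. By direction, 9 of the 16 short ones were lower in hibernation in Tia, as were 50.77% of all short transcripts. Of the 54 longer ones, 23 were lower in Tia, as were 37.99% of all longer transcripts. The short ones included NRG2, NRG3, FGF2, WNT11 and FZD2, all lower in Tia. They also included TGFB1, SMAD7, LRP6 and both LTBP4 transcripts of 600 bases, all higher in Tia. The part of length in their values was not tested.

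Other genes of the same routes, outside the name rule, were taken from 4 lists and counted by 1 transcript a gene. Their counts at an unadjusted p stand against 6.63% higher and 1.56% lower of all named genes counted the same way. Of 47 further Wnt genes, 20 had a named transcript, with a median log2 difference of 0.13 and none at an unadjusted limma p under 0.05. SFRP4, a secreted Wnt inhibitor, read 10.6 RPKM active and 1.90 hibernating in Tia and 2.84 and 2.27 in Star. Of 31 further Notch genes, 12 were named, with a median of 0.14 and none at an unadjusted limma p under 0.05. DLL4, a Notch ligand of endothelium, stood at 2.77 and 6.04 RPKM in Tia and 1.73 and 2.19 in Star. The 9 named of 28 further TGF-beta and BMP genes had a median of 0.10, with 1 higher and 2 lower at an unadjusted p under 0.05. FST, follistatin, which binds activins and myostatin, was higher in hibernation, at 2.69 and 5.05 RPKM in Tia and 1.09 and 4.94 in Star (log2 difference 1.29 ± 0.38, SE, limma adjusted p = 0.577). FBN1, the fibrillin to which latent TGF-beta binding proteins attach, was lower, at 24.9 and 7.58 in Tia and 14.1 and 7.27 in Star (−1.28 ± 0.31, SE, limma adjusted p = 0.577), and so was FSTL1, a secreted follistatin-like protein, at 46.8 and 14.8 in Tia and 21.6 and 17.2 in Star (limma adjusted p = 0.592). Of 35 growth factor receptors and adaptors, 20 were named, with a median of 0.01 and 3 higher at an unadjusted p under 0.05. These were GRB2, the adaptor between receptor tyrosine kinases and RAS, at 7.86 and 18.5 RPKM in Tia and 11.2 and 16.6 in Star, and the heparan sulphate proteoglycans GPC1 and SDC4. Across the 4 lists, 0 genes had a limma adjusted p under 0.05.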

How the data were processed

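RNA of gastrocnemius biopsies was sequenced by the authors as poly(A) single-end Illumina libraries made from full-length cDNA. They assembled transcripts with Newbler 2.3 and SOAPdenovo, named them by BLAST against human proteins of Ensembl 66, and aligned the single-end reads with SOAP2 at up to 2 mismatches. The authors deposited RPKM per transcript, with no read counts, p-values or genome coordinates. How reads matching several transcripts were assigned is not given in the sources used here. The pooled and paired-end libraries were not analysed here, and no sequence of the transcripts or proteins was used.

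Bear names in the columns were tied to the states by the month. That the bears were a subadult and an adult came from the study, and the labels name the same 2 bears in both states. Bears pair the libraries: the deviations of Tia from Star in the 2 states had a Pearson r of 0.358 across all transcripts. From the deposited values, log2(RPKM + 0.5) was compared by limma (version 3.58.1, R 4.3.3). The prior variance followed a trend, and p-values were adjusted after Benjamini and Hochberg over 26614 transcripts. This fit was made without the bear as a block, which was an alternative. The score followed the description of NOISeq, with a pseudocount of 0.5 and 53228 differences between the bears as noise. Fold limits of 1.5 and 2 were set on log2(RPKM + 0.5), while ratios in the text are of RPKM. Python 3.11.15, pandas 2.3.3 and numpy 2.4.6 served for tables and matplotlib 3.10.9 for plots. The limma step was tested on simulated data.

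The members, gene lists, tests and alternatives were chosen with earlier results of these data known. Values in all libraries were to be given for each gene's most read transcript (by mean RPKM times length) that differed 1.5-fold in both bears, in the same or opposite directions, reached a score of 0.8 or was among the 10 highest in mean RPKM, and for any other transcript that met one of the fold or score limits. Other genes with values, among them LRP5, SMAD7, BMP2K and those outside the name rule, were chosen after their values were seen.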

Additional observations from a re-analysis of the deposited data

Results flagged for a closer look

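In IGFBP5 the log2 difference between hibernation and activity was −0.75 in Tia and 1.12 in Star, so that Tia minus Star came to −1.87. In PDGFD it was −0.95 in Tia and 0.83 in Star, or −1.78 for Tia minus Star. Both stood out because each bear differed at least 1.5-fold and in opposite directions. With 1 library per bear and state, the difference between the bears was not tested.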

How the results depend on the processing

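Under every alternative run, 0 of the 70 transcripts had an adjusted p under 0.05. With the bear as a replicate block the count was also 0, so no call at an adjusted p changed. The limma adjusted p-values themselves did. With the block they were 0.236 for NRG2 and 0.830 for IGFBP5, where the main fit gave 0.577 and 0.879. At an unadjusted p under 0.05 the block gave 12 higher, where the main fit gave 8, and 2 lower. The share of all transcripts under the block is not given here, so these counts cannot be set against it.

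Scaling by the median ratio gave 5 higher at an unadjusted p under 0.05 (7.14%, against 3.25% of all transcripts). It gave 1 lower at 2-fold in both bears (1.43%, against 0.361% of all). The median log2 difference was 0.0213, and that of LRP1 was −0.00925. Without overlap 13 were above (18.6%, against 19.9% of all) and 9 below (12.9%, against 17.7%). Scaling by the upper quartile gave 4 higher at an unadjusted p under 0.05 (5.71%, against 2.87% of all). It gave 1 lower at 2-fold in both bears (1.43%, against 0.379% of all). At 1.5-fold 4 were higher (5.71%, against 1.6%) and 2 lower (2.86%, against 2.22%). Without overlap 12 were above (17.1%, against 18% of all) and 11 below (15.7%, against 19.9%). The median was −0.0147, with differences of −0.00941 for IGFBP5, −0.0201 for CTNNA1 and −0.0463 for LRP1. These scalings lowered the median difference over all transcripts by 0.10 to 0.19 in a bear. A mean RPKM of at least 5 left 4 higher and 1 lower at an unadjusted p under 0.05. It left 2 higher at 1.5-fold. These counts were smaller since fewer transcripts were tested. By the score this limit left 1, where the main run gave 3. Those 3 were NRG2, ANGPT4 and an LTBP4 transcript of 600 bases. Their mean levels were 77.9, 8.14 and 5.69 RPKM, so none of them was removed by the limit. With 1 transcript a gene there were 5 higher at an unadjusted p under 0.05 (10.9%, against 6.63% of all named genes counted the same way). In that count 3 were higher at 1.5-fold (6.52%, against 3.84%) and 13 were above without overlap (28.3%, against 35.8%). A pseudocount of 1 gave 5 by the score. For the RPKM limit and this pseudocount the share of all transcripts is not given here. At the pseudocount of 0.5, 8 differed 1.5-fold where 0 differed 2-fold.

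Leaving out 1 library at a time gave 1 to 10 higher and 1 to 8 lower at an unadjusted p under 0.05, and medians of −0.0372 to 0.298. The fewest higher came without the active library of Star, which also gave the median of −0.0372, and the most lower without the hibernating library of Star. Without the active library of Tia 4 were higher. In a single bear, 2 (Star) or 4 (Tia) differed 2-fold, 11 to 12 were higher and 2 to 11 lower at 1.5-fold. The share of all transcripts in a single bear is not given here, so these counts cannot be set against it. Without 1 library the log2 difference ranged from −0.335 to 0.710 for IGFBP5, from −0.888 to 0.773 for PDGFD, from −0.0675 to 0.372 for LRP1, from −0.00401 to 0.355 for CTNNA1 and from −0.189 to 0.0200 for SMAD4. In a single bear it was −0.75 or 1.12 for IGFBP5, −0.95 or 0.83 for PDGFD and −0.13 or 0.43 for LRP1. The cause was not tested. Directions were followed for the 17 transcripts that met the rule on named genes, under the pseudocounts, the scalings, the block and the left-out libraries and bears, and those of the 17 not listed here kept theirs. The lone library of a state was assumed to vary like the other state. The alternatives on overlap and the score without a pseudocount, which left 2, were added after seeing the data. Every value rested on at least 26.98 reads.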
